A study of Mus musculus with 6 samples.

Results

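The clustered histone genes are the genes of the histone clusters, which encode the linker histone H1 and the core histones H2A, H2B, H3 and H4. Members were taken as every gene whose GENCODE M21 symbol starts with Hist1h, Hist2h, Hist3h or Hist4h, and they were matched to the gene identifiers in the deposited values. This gave 70 genes of the 54886 listed, and each of the 70 was present in the values. They comprised 6 H1, 20 H2A, 19 H2B, 12 H3 and 13 H4 genes. In the GRCm38 annotation 56 of them lie on chromosome 13, 10 on chromosome 3, 3 on chromosome 11 and 1 on chromosome 6, and 67 are annotated as protein coding.

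The libraries came from the RNA of GC-2spd cells, a mouse line described as derived from spermatocytes and labelled with a BALB/c strain background. The control group (3 libraries) received normal medium, to which the methods of the study add PBS. The PM2.5 group (3 libraries) received 100 μg/mL of an urban particulate reference material, called PM2.5 in the study, for 48 h. The samples carry replicate numbers 1 to 3 in both groups, and neither the labels nor the methods of the RNA sequencing say that they were separate cultures. The study describes its quantitative data in general as coming from repeated experiments, without naming these libraries, so the spread between these samples, which the p-values measure, may be technical.

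The markers went against the spermatocyte label. Of 12 spermatocyte markers, 5 (Spo11, Hormad1, Piwil1, Dazl and Pgk2) were at 0 reads in all 6 libraries, and 0 of the 12 reached a mean FPKM of 1. Their summed FPKM was 1.31, 3.40 and 1.05 in control replicates 1 to 3 and 0.304, 0.461 and 0.969 in PM2.5 replicates 1 to 3, and the most abundant was Sycp3. Of 6 markers of peritubular cells and fibroblasts, 5 reached a mean FPKM of 1, and their sum lay between 378 and 760 in the 6 libraries, with Col1a1 the most abundant. The cells are therefore called GC-2spd cells and not spermatocytes. The summed FPKM of the 5 Sertoli cell markers was between 12.1 and 23.6, most of it Gata4, with Fshr at 0. The 5 Leydig cell markers summed to between 1.74 and 2.59, most of it Star, with Hsd3b1 at 0. The 4 macrophage markers summed to 15.5 in control replicate 2 and to between 0.795 and 1.87 in the other 5 libraries; nearly all of this was Cd68, while Ptprc and Adgre1 were at 0.

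Replication-dependent histone genes are transcribed mainly in S phase, when new DNA has to be packed into nucleosomes. Their mRNAs are unusual among those of animal cells because they usually end in a conserved stem-loop, which is bound by the stem-loop binding protein Slbp, and not in a poly(A) tail. Some of them also have a polyadenylated form, which is better known from cells that have left the cell cycle, and libraries made by poly(A) selection mainly register that form. Neither the labels nor the study's methods name such a step: how RNA was selected before library preparation is not given in the sources used here.

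The stem-loop is shown because it marks the mRNAs that may lack a tail. A search of the annotated transcripts after the stop codon, for 6 bases that start with GG, a loop of 4 bases that starts with TT and the reverse complement of the first 6 bases, found it in 44 of the 70 genes. It began between 21 and 58 bases after the stop codon (median 31). The sites of the member of each histone type that had the highest mean FPKM over the 6 libraries among those with a match are given below in the 3′ UTR of each gene, on GRCm38, 5′ to 3′ on the strand of the gene, with the stem-loop in capitals.
Hist1h1c (H1, chr13:23739507-23739532, plus strand): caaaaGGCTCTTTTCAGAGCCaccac
Hist3h2a (H2A, chr11:58955167-58955192, plus strand): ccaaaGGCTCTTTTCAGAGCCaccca
Hist1h2bg (H2B, chr13:23571838-23571863, plus strand): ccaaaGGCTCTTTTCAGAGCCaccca
Hist1h3c (H3, chr13:23745042-23745067, minus strand): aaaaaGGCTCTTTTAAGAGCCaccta
Hist1h4i (H4, chr13:22040961-22040986, minus strand): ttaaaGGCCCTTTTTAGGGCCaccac

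The same 16 letters as in Hist1h1c were found in 26 genes, and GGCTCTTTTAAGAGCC was found in 6. The letters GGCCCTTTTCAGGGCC were found in 7 genes, and those of Hist1h4i in 2. Of the 44 genes with a stem-loop, 14 also had AATAAA, the commonest poly(A) signal, after the stop codon, and 30 did not. Another 5 genes had AATAAA and no match to the stem-loop, among them Hist1h2bc and Hist2h2be. A further 18 protein coding genes had neither, of which 13 are annotated without any 3′ UTR, so that the absence of a match there reflects the annotation. The remaining 3 are pseudogenes.

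Promoters of 62 of the 70 genes were matched in the RefSeq table (GRCm38.p6, 250 bases before to 50 after the start). The letters CCAAT occurred on either strand in 53 of these 62 promoters (85.5%) against 37.4% of all 32851 promoters, and in 3 of the 12 H4 promoters. The letters TATAAA occurred in 35 of the 62 (56.5%) against 13.6% of all promoters. These are matches of letters and not evidence of binding.

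The depth was 18003166, 16209346 and 17511439 reads in control replicates 1 to 3 and 17000305, 17113998 and 17530617 reads in PM2.5 replicates 1 to 3, as recovered from the deposited FPKM (fragments per kilobase of exon, scaled to the depth of the library). Control replicate 2 stood apart from the other 5 libraries. Its log2(FPKM + 1) had a correlation across genes of 0.742 with control replicate 1 and 0.745 with control replicate 3, which had 0.992 with each other. Mitochondrially encoded genes took 14.5% of its reads, while in the remaining 5 libraries their share was 1.65% to 1.95%. The total that its FPKM imply was 0.800 of its recovered reads, against 1.03 to 1.05 in the other libraries, so 1 read counts for more FPKM in this library. PM2.5 replicate 3 had a correlation of 0.972 with each of control replicates 1 and 3, and of 0.950 and 0.958 with PM2.5 replicates 1 and 2. The main comparisons below are therefore given with and without control replicate 2, and the histone sums also without PM2.5 replicate 3. The source of these differences was not tested.

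The clustered histone genes took few reads in every library. They held 2447, 3261 and 2501 reads in control replicates 1 to 3 and 1697, 1773 and 1437 reads in PM2.5 replicates 1 to 3. In reads per 1000000, this was 136, 201 and 143 in the control group and 99.8, 104 and 82.0 in the PM2.5 group. All 3 PM2.5 libraries thus lay below all 3 control libraries, as in 4.86% of all single genes tested when scaled to total reads. Hist1h1c and Hist1h2bc together held most of the histone reads in each library, and the difference between these sums was not tested. In bulk RNA, fewer cells in S phase and less histone RNA per cell cannot be told apart. If RNA was selected by its poly(A) tail, a smaller share of histone RNA with a tail cannot be told apart from them either.

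**Figure D1:**
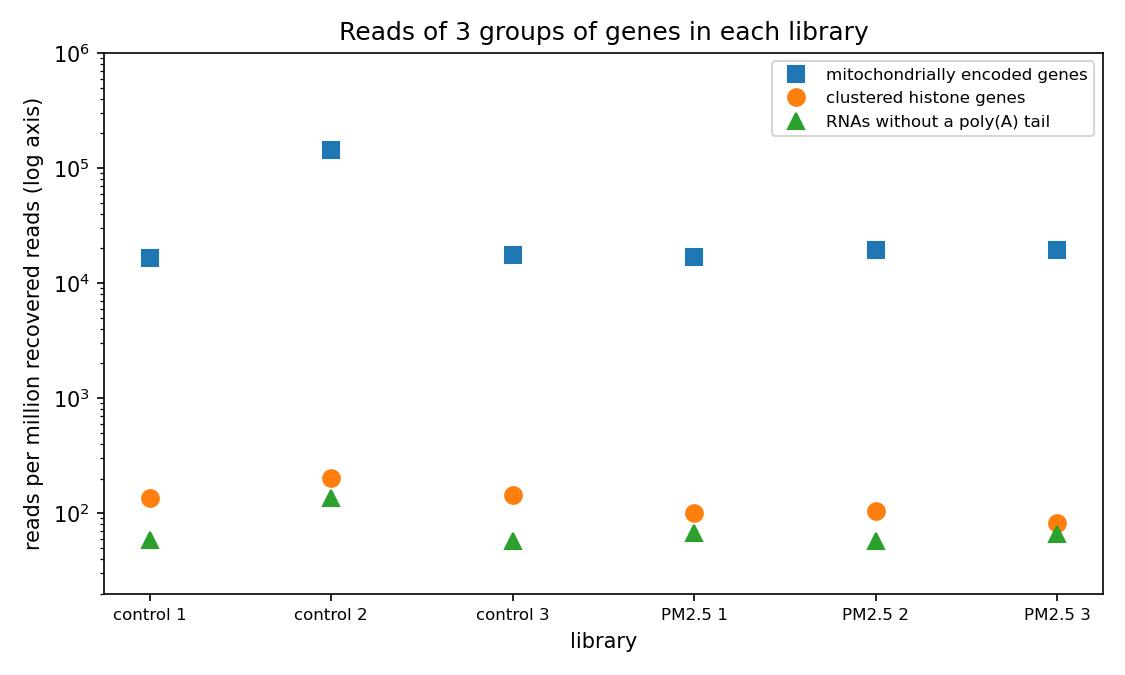
Reads per 1000000 recovered reads (log axis) in each of the 6 libraries for mitochondrially encoded genes (squares), clustered histone genes (circles) and RNAs without a poly(A) tail (triangles). Control replicate 2 is highest for each of the 3 groups of genes.

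RNAs that have no poly(A) tail were measured beside them as a sign of what the libraries hold. The 2947 genes of this list (Rmrp, Rpph1, Rn7sk, Terc and the snRNA, snoRNA and scaRNA genes) held 58.4, 135 and 57.3 reads per 1000000 in control replicates 1 to 3. In PM2.5 replicates 1 to 3 they held 67.0, 56.9 and 65.5. Rmrp and Rpph1, abundant RNAs made by RNA polymerase III, were listed at 0 in all 6 libraries, and Rn7sk had 19, 39 and 17 reads in the control group and 4, 1 and 19 in the PM2.5 group. The list was highest in control replicate 2, as were the histone genes. Most of it there was snoRNA, at 109 reads per 1000000. The scaRNA genes went the other way, with 0.987 reads per 1000000 in control replicate 2 and 1.83 to 2.80 in the other libraries. The part of the list in the level of the histone genes was not tested.

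Of the 70 genes, 11 had 0 reads in all 6 libraries. With these 11 included, 17 had fewer than 3 reads in each library, the floor used here, which covers counting error only. The 11 included 7 H2A, 2 H2B and 2 H3 genes, with 6 of the 11 on chromosome 3. Reads of near-identical copies can be lost or shared when they are assigned to genes. Of the 31-base stretches of the 11 genes, a median of 93.4% (28.3% to 100%) also occur in other genes, against a median of 56.3% (0% to 98.3%) in the other 59. Whether shared reads account for the values at 0 was not tested. The testis gene Hist1h1t, which encodes the H1 variant of spermatocytes, reached at most 0.507 FPKM, in control replicate 2. Hist1h2aa and Hist1h2ba, which encode testis H2A and H2B variants, were listed at 0 in every library. Over the 59 genes with reads, 42 were highest in control replicate 2 in FPKM, many of them on few reads. Of the 11884 genes with a mean FPKM of 1 or more, 39.3% were highest there. These are unlike sets, and the difference was not tested. The highest value among the 53 genes under a mean FPKM of 1 was 4.42 FPKM, for Hist1h4c in control replicate 2.

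Summed by type, the histone genes differed in how they stood in control replicate 2. The H1 genes summed to 45.4, 21.8 and 50.2 FPKM in control replicates 1 to 3 and 34.4, 35.8 and 27.9 in PM2.5 replicates 1 to 3. The H2B genes summed to 33.7, 135 and 33.6 in the control group and 19.8, 19.6 and 18.4 in the PM2.5 group. The H1 sum was thus lowest in control replicate 2, at 0.457 of the mean of the other 2 controls. The H2B sum was highest there, at 4.0 times that mean. The low H1 sum came from Hist1h1c alone. The other 5 of the 6 H1 genes, all of low level, were each highest in control replicate 2. The H2A genes summed to 5.12, 17.5 and 6.42 FPKM in the control group and 3.89, 4.82 and 2.69 in the PM2.5 group. The H3 genes summed to 8.30, 22.1 and 7.93 and to 8.41, 8.85 and 5.38. The H4 genes summed to 18.8, 55.9 and 18.2 and to 17.8, 17.1 and 9.60. Each of these 3 types was highest in control replicate 2, at between 2.72 and 3.03 times the mean of the other controls. These ratios are in FPKM, in which 1 read counts for more in control replicate 2. Scaled to total reads the same types were highest and lowest there, but the distance was smaller for those that were highest. The H2B sums were then 34.7, 108 and 34.6 in control replicates 1 to 3.

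**Figure D2:**
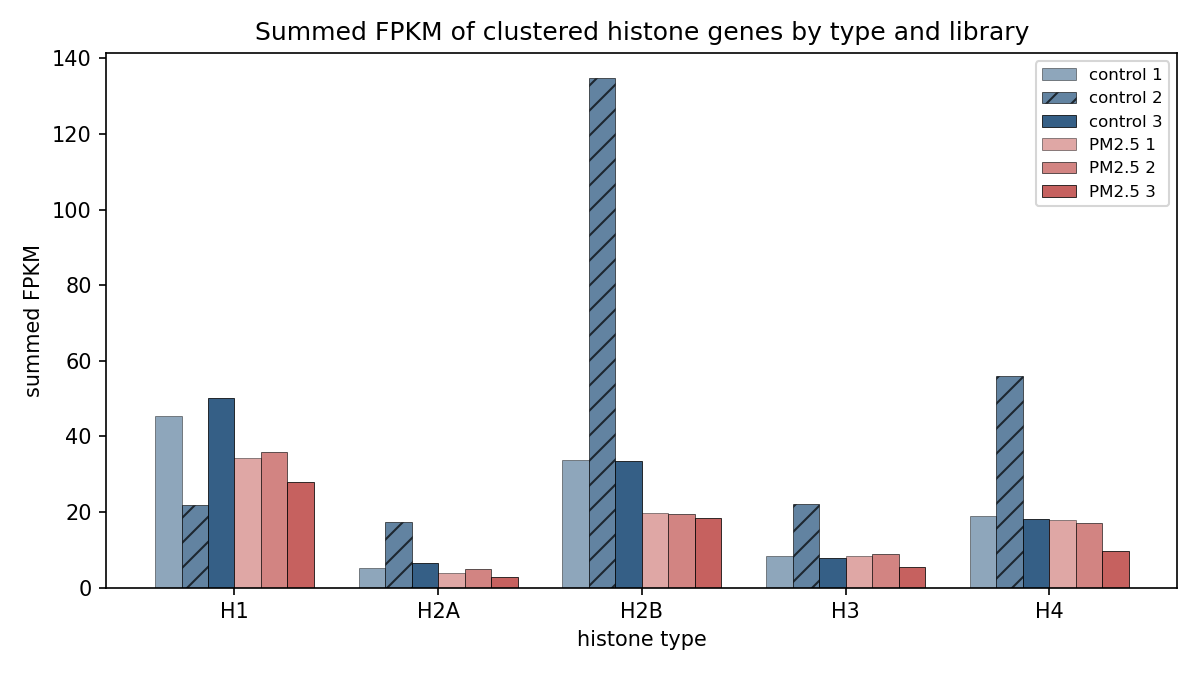
Summed FPKM of the clustered histone genes of each type (H1, H2A, H2B, H3 and H4) in each of the 6 libraries; bars start at 0 and control replicate 2 is hatched. Control replicate 2 is the highest library for H2A, H2B, H3 and H4 and the lowest for H1. The H1 sum is mostly Hist1h1c, and the other 5 H1 genes are each highest in control replicate 2.

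The spread of the control group was large for each type because of that library. For H2B the sum was 67.3 ± 58.3 in the control group (SD, n = 3) and 19.3 ± 0.782 in the PM2.5 group (SD, n = 3), and for H1 it was 39.1 ± 15.2 and 32.7 ± 4.20. Without control replicate 2 the H2B sum was 33.7 ± 0.063 in the control group (SD, n = 2) and the PM2.5 group stood at 0.572 of it. The same ratio was 0.684 for H1, 0.659 for H2A, 0.803 for H4 and 0.930 for H3. The PM2.5 libraries were below control replicates 1 and 3 for H1, H2A, H2B and H4, as in 19.6% of all single genes tested, and they overlapped for H3. Scaled to total reads, they overlapped for H4 too, with 18.75 in PM2.5 replicate 1 and 18.72 in control replicate 3. PM2.5 replicate 3 was the lowest library for H2A, H2B, H3 and H4. When it was left out as well, the ratio was 0.945 for H4 and turned to 1.06 for H3, while it was 0.586 for H2B, 0.734 for H1 and 0.756 for H2A. These sums were not tested.

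A single gene made up most of the H1 and H2B sums in each of the 6 libraries. Hist1h1c gave between 71.7% and 97.5% of the H1 sum, and Hist1h2bc gave between 65.9% and 86.2% of the H2B sum. Hist1h4i gave between 69.5% and 80.9% of the H4 sum in 5 libraries and 29.8% in control replicate 2, where the H4 sum was 3.02 times the mean of the other controls and Hist1h4i alone 1.21 times. Scaled to total reads, Hist1h4i was not higher there, with 13.3 against 13.7 and 14.6 in control replicates 1 and 3. The gene of highest mean FPKM gave at most 39.3% of the H2A sum (Hist3h2a) and at most 30.6% of the H3 sum (Hist1h3g).

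The comparison of the PM2.5 group with the control group asked which genes changed with exposure. It was made with limma on log2(FPKM + 1), so that fold changes of low genes are understated, over the 11884 genes whose mean FPKM was 1 or more. A gene was called where the p-value adjusted by the Benjamini-Hochberg method was under 0.05 and the absolute log2 fold change was above 1. A total of 17 of the 70 histone genes passed this filter (1 H1, 3 H2A, 3 H2B, 4 H3 and 6 H4), and 7 of the 17 passed only because of control replicate 2 (Hist3h2a, Hist1h2ae, Hist1h2ao, Hist1h2bj, Hist1h4d, Hist1h4j and Hist1h4f). Lower PM2.5 values of these 7 give no support to a difference, since a high control library let them in. None of the 17 was called (0 members), against 11 of all genes tested (0.0926%), of which 4 were higher and 7 lower in the PM2.5 group. The same share, 0.0926%, passed the adjusted p-value alone. At an unadjusted p-value under 0.05 in limma there were 2 members (Hist1h2ao and Hist1h2bc) and 451 genes (3.8%), and voom on recovered reads called 0 genes, with 2 members and 423 genes (3.6%) under that unadjusted value. In 3 members (Hist1h2ao, Hist1h2bc and Hist1h4i) every PM2.5 library was below every control library, as in 6.85% of all genes tested. Scaled to total reads, this held for 2 members (Hist1h2ao and Hist1h2bc) and 4.86% of all genes. Hist1h2ao is 1 of the 7.

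All 17 fitted log2 fold changes were below 0, as were 48.1% of those of all genes tested, with a median of -0.63 against 0.020 over all genes. When the values were scaled to total reads, 15 of the 17 and 37.2% of all genes were below 0. The median of the histone genes was -0.41 with a filter of 0.1 (45 of 53 below 0) and -0.27 with no filter (49 of 59). These counts and medians give no support to a lower level, since a high value in 1 control library lowers the fitted fold change. Of the 17, 14 were highest in control replicate 2 (82.4%, against 39.3% of all genes tested). Scaled to total reads, 12 of the 17 were highest there (70.6%, against 29.2%). Both counts include the 7 members that passed the filter only because of that library and were thus bound to be high there. The shares are therefore a description and give no support to a difference from all genes. Without control replicate 2 the median was -0.24 against -0.011 over all genes, and 14 of 17 were below 0, as were 52% of all genes. With a filter of 0.1 as well it was -0.11, and 39 of 53 were below 0. In that comparison 0 members were called, against 84 genes (0.707%), and 1 member (Hist1h2bc) passed the adjusted p-value alone, against 118 genes (0.993%). There were 3 members (Hist1h2bc, Hist1h2ao and Hist1h1c) with an unadjusted p-value under 0.05 in limma, against 1885 genes (15.9%). Every PM2.5 library was below control replicates 1 and 3 in 6 members, against 19.6% of all genes tested (6 members and 18.7% when scaled to total reads).

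**Figure D3:**
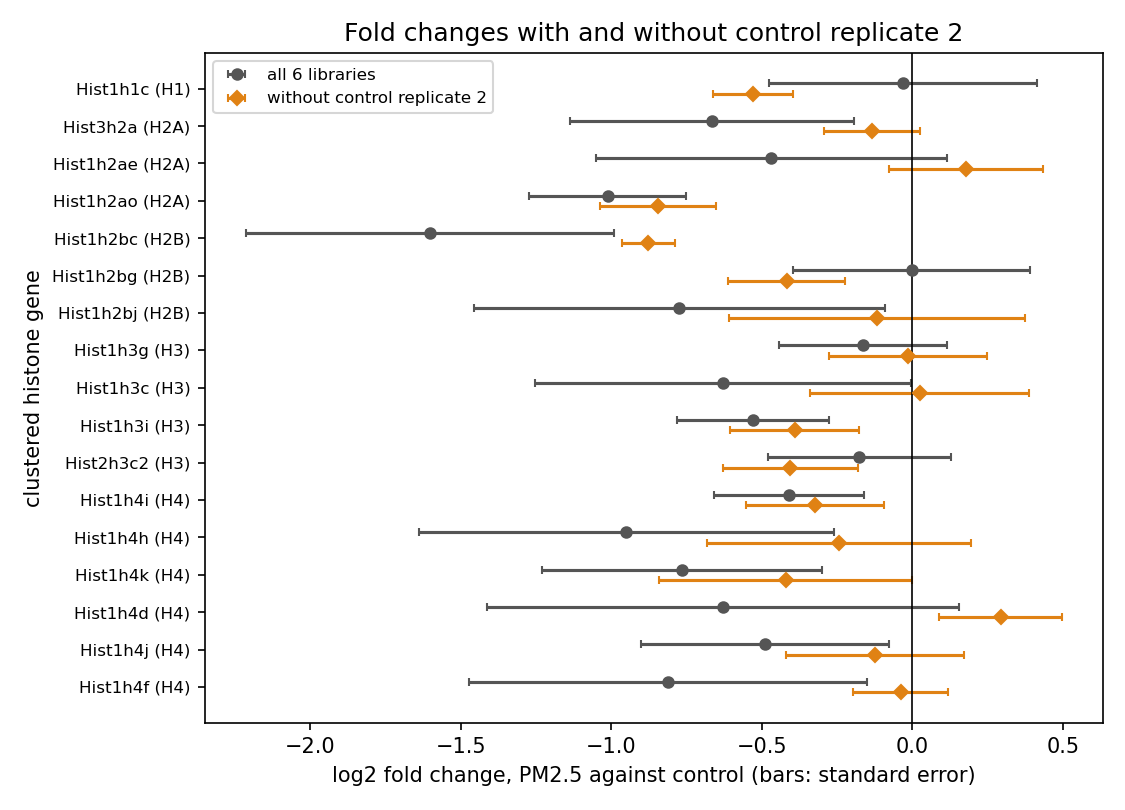
Fitted log2 fold change of PM2.5 against control for the 17 clustered histone genes that passed the filter, with all 6 libraries (circles) and without control replicate 2 (diamonds); bars are standard errors. Hist1h2bc moves from -1.60 to -0.88 and Hist1h1c from -0.031 to -0.53.

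Hist1h2bc encodes an H2B protein. Its mean of 34.2 FPKM was the highest of the members (33.7 for Hist1h1c), but only through control replicate 2, without which it was 17.9 against 37.3 for Hist1h1c. Hist1h2bc spans chr13:23684199-23692908 on the plus strand. Its annotated transcript has 2 exons and no match to the stem-loop, with AATAAA in its 3′ UTR. The gene had 24.3, 116 and 25.6 FPKM in control replicates 1 to 3, from 522, 1741 and 534 reads. It had 13.1, 13.7 and 12.6 FPKM in PM2.5 replicates 1 to 3, from 270, 281 and 264 reads. All 3 PM2.5 libraries were below all 3 control libraries, and control replicate 2 was far above the rest. With all libraries the log2 fold change was -1.60 (standard error 0.61, limma adjusted p-value 0.875), so the difference did not pass the test. Without control replicate 2 it was -0.88 (standard error 0.088, limma adjusted p-value 0.0264), which passed the adjusted p-value and missed the threshold on the fold change. Of its 31-base stretches, 33.5% also occur in other genes, so some of its reads may be shared with them.

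Hist1h1c encodes a linker histone and spans chr13:23738808-23740367 on the plus strand. It had 44.2, 15.7 and 47.6 FPKM in control replicates 1 to 3 and 33.4, 34.3 and 27.2 in PM2.5 replicates 1 to 3. The PM2.5 libraries were below control replicates 1 and 3 and above control replicate 2. The log2 fold change was -0.031 (standard error 0.45, limma adjusted p-value 0.981) with all libraries, turning to 0.095 when scaled to total reads, and -0.53 (standard error 0.13, limma adjusted p-value 0.173) without control replicate 2, and neither passed. Only 11.4% of its 31-base stretches occur in other genes. The other 5 H1 genes stayed under a mean FPKM of 1, and 4 of them, Hist1h1a, Hist1h1b, Hist1h1d and Hist1h1e, reached 2.91, 1.66, 0.177 and 0.919 FPKM in control replicate 2.

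Hist1h4i encodes histone H4 and spans chr13:22040636-22041362 on the minus strand. It had 13.3, 16.6 and 14.2 FPKM in control replicates 1 to 3 and 12.4, 12.9 and 7.76 in PM2.5 replicates 1 to 3. The groups did not overlap in FPKM, and PM2.5 replicate 3 was the lowest. In reads per 1000000 they overlapped, with 9.69 in control replicate 2 and 9.70 in PM2.5 replicate 2. The log2 fold change was -0.41 (standard error 0.25, limma adjusted p-value 0.875) with all libraries and -0.32 (standard error 0.23, limma adjusted p-value 0.536) without control replicate 2. The other 5 H4 genes that passed the filter (3 of them only because of control replicate 2), Hist1h4h, Hist1h4k, Hist1h4d, Hist1h4j and Hist1h4f, were highest in control replicate 2, at 8.69, 3.71, 6.44, 2.99 and 5.32 FPKM. In the other 5 libraries they ranged from 0 to 2.14 FPKM. Hist1h4d had 95 reads in control replicate 2 and at most 14 reads elsewhere, and its log2 fold change turned from -0.63 to 0.29 without control replicate 2.

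The H2A genes that passed were Hist3h2a, Hist1h2ae and Hist1h2ao, each of them only because of control replicate 2. For Hist1h2ao the mean was 1.05 FPKM with that library and 0.778 without it, so its values are a description and support no difference. Hist1h2ao had 1.68, 2.41 and 1.16 FPKM in control replicates 1 to 3 and 0.466, 0.470 and 0.115 in PM2.5 replicates 1 to 3. This came from 15, 15 and 10 reads in the control group and 4, 4 and 1 in the PM2.5 group. The log2 fold change was -1.01 (standard error 0.26, limma adjusted p-value 0.711) with all libraries and -0.84 (standard error 0.19, limma adjusted p-value 0.147) without control replicate 2. Other genes hold 93.8% of its 31-base stretches, and 28.8% of its exon overlaps a gene on the other strand. The strand setting of the counting is not given in the sources used here, so its reads cannot be assigned with confidence. Hist3h2a and Hist1h2ae reached 4.89 and 5.15 FPKM in control replicate 2 and at most 1.20 in any other library.

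Of the other H2B genes, Hist1h2bg had 4.01, 0.748 and 2.42 FPKM in control replicates 1 to 3 and 1.90, 2.01 and 2.42 in PM2.5 replicates 1 to 3. It was lowest in control replicate 2, in contrast to Hist1h2bc. Its log2 fold change was -0.0028 with all libraries (0.056 when scaled to total reads) and -0.42 (standard error 0.19, limma adjusted p-value 0.380) without control replicate 2. Hist1h2bj, which passed only because of control replicate 2, had 2.09, 6.66 and 0.240 FPKM in the control group and 1.69, 0.609 and 0.359 in the PM2.5 group, and the groups overlapped. The log2 fold change of Hist1h2bj was -0.77 (limma adjusted p-value 0.875) with all libraries and -0.12 (limma adjusted p-value 0.925) without control replicate 2.

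The H3 genes that passed were Hist1h3g, Hist1h3c, Hist1h3i and Hist2h3c2. Hist1h3g, the most abundant, had 2.54, 3.20 and 1.67 FPKM in control replicates 1 to 3 and 2.53, 2.55 and 1.25 in PM2.5 replicates 1 to 3. Its groups overlapped, and the log2 fold change was -0.16 (standard error 0.28, limma adjusted p-value 0.883) with all libraries and -0.014 (standard error 0.26, limma adjusted p-value 0.983) without control replicate 2. Hist1h3c had 6.61 FPKM in control replicate 2 and at most 1.88 FPKM elsewhere. Hist2h3c2 was lowest in control replicate 2, at 0.529 FPKM.

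**Figure D4:**
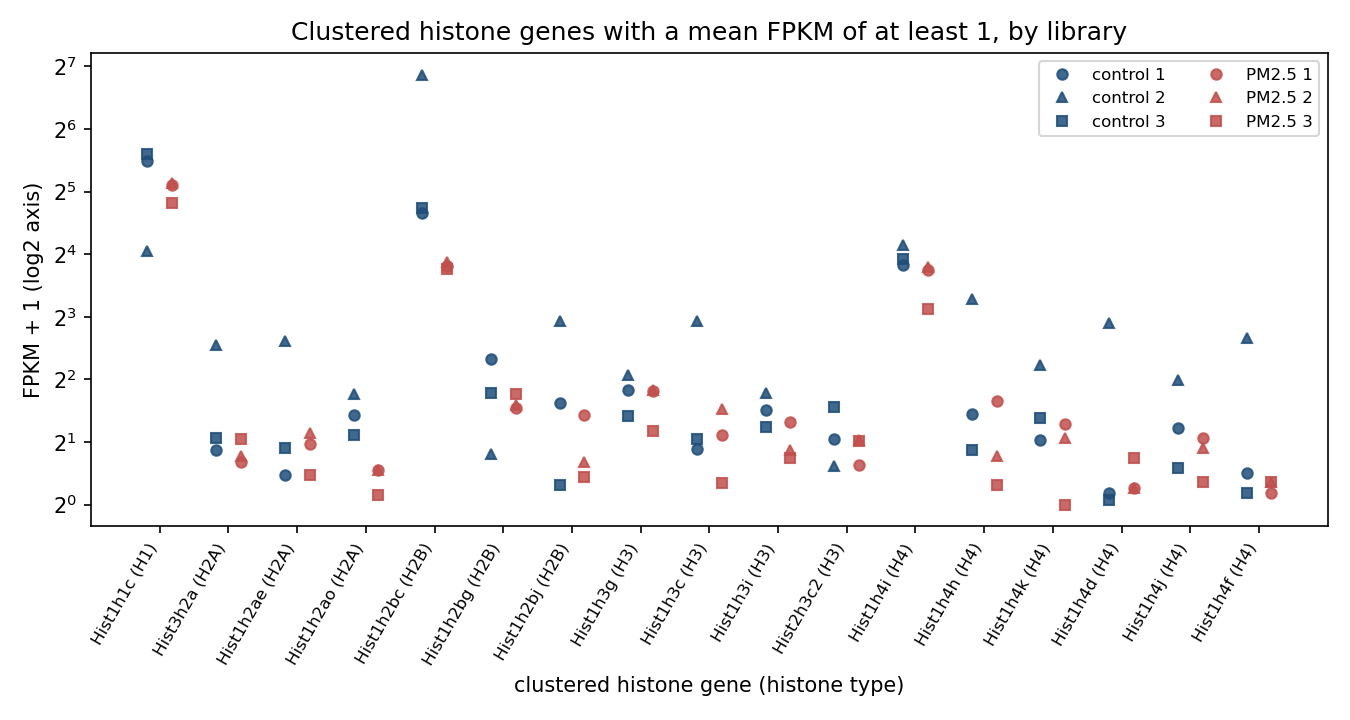
FPKM + 1 (log2 axis) of the 17 clustered histone genes that passed the filter, ordered by histone type and mean; each point is 1 library, blue for control and red for PM2.5, with the shape giving the replicate. Control replicate 2 (blue triangles) is the highest library in 14 of the 17 genes and the lowest in 3. Of the 17, 7 passed the filter only because of that library.

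Grouped by the end of the transcript, the 30 genes with a stem-loop and no AATAAA summed to 29.1, 77.4 and 27.9 FPKM in control replicates 1 to 3 and 25.7, 24.8 and 16.7 in PM2.5 replicates 1 to 3. The 14 genes with both summed to 49.1, 35.5 and 52.2 and to 37.1, 38.3 and 30.5. Hist1h1c gave between 89.3% and 91.2% of this sum in 5 libraries and 44.1% in control replicate 2. The 5 genes with AATAAA and no match to the stem-loop summed to 25.7, 118 and 27.0 and to 13.7, 15.1 and 13.4, most of it Hist1h2bc. The 18 protein coding genes with neither summed to 7.39, 21.3 and 9.23 and to 7.52, 7.59 and 3.22. Control replicate 2 was thus higher than the other controls for 3 of these groups, with and without the stem-loop. It was lower for the group led by Hist1h1c, which had 15.7 FPKM there against 44.2 and 47.6 in control replicates 1 and 3. The rest of that group's sum was higher in control replicate 2.

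The other genes of the histone pathway showed no called change. Of 27 genes named for the formation of histone mRNA 3′ ends, its stability and the histone locus body, 24 were matched by symbol and 23 tested, with 0 called and a median log2 fold change of -0.12 (-0.021 without control replicate 2). The 3 of highest mean FPKM over the 6 libraries were the cap-binding genes Ncbp1 and Ncbp2 and Srrt. Srrt had 27.9, 97.0 and 28.3 FPKM in the control group and 39.5, 37.3 and 26.6 in the PM2.5 group, and was thus highest in control replicate 2.

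Of 18 listed histone variants encoded outside the clusters, most of which are less tied to S phase, 12 were tested and 0 called, with a median log2 fold change of -0.26 (-0.11 without control replicate 2). H1f0, the linker histone of resting cells, had 316, 859 and 324 FPKM in control replicates 1 to 3 and 229, 228 and 204 in PM2.5 replicates 1 to 3. It was highest in control replicate 2, and its groups did not overlap, with every PM2.5 library below every control library, as in 6.85% of all genes tested. Its log2 fold change was -1.01 (standard error 0.45, limma adjusted p-value 0.875), and -0.54 (limma adjusted p-value 0.110) without control replicate 2. In FPKM the groups of H2afv and Cenpa did not overlap either, and those of Cenpa overlapped when scaled to total reads. The log2 fold change of H2afv was -0.66 (limma adjusted p-value 0.857), and -0.64 (limma adjusted p-value 0.0801) without control replicate 2. That of Cenpa was -0.26 (limma adjusted p-value 0.875), and -0.27 (limma adjusted p-value 0.249) without control replicate 2. H2afz had 344, 138 and 363 FPKM in the control group and 343, 354 and 344 in the PM2.5 group, and H3f3b lay between 242 and 288 in the 6 libraries.

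All 20 histone chaperones were tested and 0 called, with a median log2 fold change of 0.11 (-0.038 without control replicate 2), and the most abundant were Npm1, Anp32e and Nap1l1. All 24 S phase genes were tested and 0 called, with a median of -0.019 (-0.089 without control replicate 2). Pcna, the sliding clamp of DNA replication, had 211, 157 and 216 FPKM in control replicates 1 to 3 and 190, 200 and 231 in PM2.5 replicates 1 to 3, and the groups overlapped. Mcm4 and Mcm7, subunits of the replicative helicase, had log2 fold changes of 0.40 and -0.13 (limma adjusted p-values 0.876 and 0.878), and of -0.23 and -0.20 without control replicate 2 (limma adjusted p-values 0.551 and 0.339). At an unadjusted p-value under 0.05 in limma there was 1 of the 79 genes tested over the 4 lists with all libraries, against 3.8% of all genes tested. Without control replicate 2 there were 12 of the 79, against 15.9% of all genes tested, which is about the same share. Of the 12, 3 were higher and 9 lower in the PM2.5 group, against 978 higher and 907 lower over all genes. The histone variants held 4 of the 9. The balance of directions was not tested.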

How the data were processed

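RNA was sequenced from 6 samples of GC-2spd cells, 3 per group. The authors prepared libraries with a NEBNext Ultra kit and deposited FPKM per gene; the submitters' processing notes name HISAT2 2.0.5, featureCounts 1.5.0-p3 and the build mm9. Gene positions and lengths came from GENCODE M21 (GRCm38), whose exon lengths turned each of the 285 histone values above 0 into whole reads within 0.1, although the notes name another build. Of values under 50 reads in each library, 98.3% to 98.7% were whole.

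The deposited values were joined by gene identifier. Differences were fitted with limma 3.58.1 (R 4.3.3, trend and robust options, statmod 1.5.0) on log2(FPKM + 1) over 11884 genes of mean FPKM 1 or more, with p-values adjusted over all of them. Floors of 3 reads cover counting error only. The computations were run on simulated data as a check of the code. No gene of low level was changed there, so this gives no measure of power for the low histone genes. Alternatives were filters of 0.1 and none, a pseudocount of 0.1, scaling to total reads, voom on recovered reads, the replicate number as a block and leaving out each library.

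Members, lists and rules were chosen with earlier results of these data known. Named were members that passed the filter, the highest of each type, members called, 3 testis members, and the 3 most abundant and any called gene of each other list. The genes Hist1h1a, Hist1h1b, Hist1h1d, Hist1h1e, Hist1h4c, Hist2h2be, H2afv and Cenpa were named after their values were seen. Symbols without a match were Zcchc6, Zcchc11 and Slip1. Tables were handled with numpy 2.4.6 and pandas 2.3.3, and figures were drawn with matplotlib 3.10.9.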

Additional observations from a re-analysis of the deposited data

How the results depend on the processing

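The number of histone genes called was 0 under every alternative run with both thresholds, and 1 (Hist1h2bc) when control replicate 2 was left out with no threshold on the fold change, an alternative chosen after seeing the data. No gene of the 4 pathway lists was called under any of them. The number of all genes called was 11, and it was 4 with a filter of 0.1, 0 with no filter, 6 when scaled to total reads and 0 with voom. Leaving out 1 library at a time gave between 0 and 84 called genes, with 84 without control replicate 2 and 0 without any other library. Of further alternatives chosen after seeing the data, leaving out control replicate 2 gave 118 genes with no threshold on the fold change, 69 with a filter of 0.1 and 108 with voom. With the replicate number as a replicate block 0 genes were called, and 335 had an unadjusted p-value under 0.05 in limma; deviations of same-numbered libraries had correlations across genes of -0.285, 0.180 and 0.253, so the numbers were not taken to pair the samples. The median log2 fold change of the histone genes tested was below 0 under each alternative run, between -0.90 and -0.24 over the leave-one-out comparisons, -0.41 with a filter of 0.1, -0.27 with no filter, and nearest to 0, at -0.11, with control replicate 2 left out and a filter of 0.1. Scaling to total reads moved the median of all genes from 0.020 to 0.13, and that of the histone genes to -0.52, with 15 of 17 below 0. The direction turned for some genes that were not called. Hist1h1c had 0.095 when scaled to total reads, and between -0.53 and 0.24 when 1 library was left out (above 0 without control replicate 1 or 3 or PM2.5 replicate 3). Hist1h2bg had 0.090 with a pseudocount of 0.1, 0.056 when scaled to total reads and 0.011 with voom, and between -0.42 and 0.34 when 1 library was left out (below 0 only without control replicate 2 and PM2.5 replicate 3). The leave-one-out values ran from -0.34 to 0.054 for Hist1h3g, from -0.41 to 0.070 for Hist2h3c2, from -0.99 to 0.024 for Hist1h3c, from -0.90 to 0.18 for Hist1h2ae and from -1.12 to 0.29 for Hist1h4d. Those of the last 3 genes turned only without control replicate 2, where a filter of 0.1 gave 0.024 for Hist1h3c, 0.18 for Hist1h2ae and 0.29 for Hist1h4d and voom gave 0.39 for Hist1h2ae, 1.57 for Hist1h4d and -0.16 for Hist1h3c, which did not turn there. The H3 sum, PM2.5 minus control, turned from -5.22 to 0.516 FPKM with control replicate 2 and PM2.5 replicate 3 both left out, an alternative chosen after seeing the data. The cause of these changes was not tested. Members with few reads limit the comparison: 17 of the 70 had fewer than 3 reads in each library, and a difference under that floor was not detectable at this depth.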
